A study of Drosophila melanogaster with 2 samples.

Results

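The 8 genes described here are the core of the ecdysone response of Drosophila melanogaster: EcR and usp, which encode the receptor, the early genes br, Eip74EF and Eip75B, and the nuclear receptor genes Eip78C, Hr39 and Hr4. They were taken by name, and they are 8 of 13945 protein-coding genes on the 6 chromosome arms used. Binding was measured by chromatin immunoprecipitation with sequencing (ChIP-seq) of Huckebein, a zinc-finger transcription factor of the terminal gap gene class, and the values are the positions and scores of peaks. A peak was given to a gene when its summit lay in the gene or up to 5 kb upstream of the gene's start. By that rule 41 of the 7220 peaks in the combined thresholded list belonged to the 8 genes, and each of the 8 had at least 2.

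The study held 1 group with 2 biological replicates. Both were whole embryos aged 0 to 24 h of the transgenic strain hkb-GFP, which carries an insertion of an eGFP-tagged hkb, and both were precipitated with an antibody against GFP after sonication to 200 to 800 bp. Both replicates come from the same strain, the sex was not collected, and each sample pools all tissues and all embryonic stages of that window, so a weak peak and a peak in few cells cannot be told apart. No untagged, input or other-stage sample was used here, and every comparison below is between replicates or between these genes and the rest of the genome.

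Ecdysone is the steroid hormone that drives moulting and metamorphosis in insects, and a pulse of it also occurs in the embryo. Its active form binds a heterodimer of the nuclear receptors EcR and Ultraspiracle, which sits on DNA at repeats of a short half-site and switches on a first tier of transcription factor genes. These early genes in turn regulate later tiers, among them several orphan nuclear receptors, and many of them use alternative promoters that give protein isoforms with different roles.

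The peak lists were of 4 kinds: the combined thresholded list, a conservative thresholded list, the thresholded list of each replicate, and ranked lists of candidate peaks. The thresholded lists were drawn from the ranked ones. The conservative list came from the comparison of the replicates with each other, and it is not a subset of the combined list. It held 36 of the 41 combined-list summits at the 8 genes (87.8%), against 83.5% of all 7220. The replicate 1 list held 5260 peaks and the replicate 2 list 4347. Signal values are scores that the authors deposited without a stated unit. A signal value ranks peaks within 1 list only, and ranks from lists of different lengths show no change between samples. No read counts were used, so the depth is unknown, and no error can be put on a single signal value other than the pair of replicate values. The irreproducible discovery rate (IDR) measures how alike peaks rank in 2 sets. Every thresholded peak had a −log10 IDR of at least 2, and 42 of 558 candidates in the combined ranked list within the windows of the 8 genes reached that value.

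The sequences shown first are those at the 3 strongest of the 41 summits, in introns of Hr4, at Hr4 summit 10 for its motif match, at 2 strong intronic summits of Eip75B, at the stronger summit of br, and before the Eip75B start with the gene's strongest peak. Summits are numbered within each gene in the direction of transcription. Each line gives the summit with 50 bp on either side, or 30 bp of that window where it touches an untranslated region, from the RefSeq Release 6 assembly, the dm6 build of the peak lists. Capitals mark matches on either strand to GAGAG (the GAGA factor motif), TGGCGC (part of the CTCF motif) or CGATA (part of the BEAF-32 motif). The last line is the 60 bp just before the start of the Eip75B isoform RC, read along the gene.
Hr4 summit 4 (X:1947675-1947775, plus strand): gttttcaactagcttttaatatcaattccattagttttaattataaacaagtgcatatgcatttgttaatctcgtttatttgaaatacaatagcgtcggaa
Hr4 summit 6 (X:1951871-1951971, plus strand): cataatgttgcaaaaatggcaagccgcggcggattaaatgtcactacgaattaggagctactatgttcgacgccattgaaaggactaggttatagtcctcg
Hr4 summit 7 (X:1963885-1963985, plus strand): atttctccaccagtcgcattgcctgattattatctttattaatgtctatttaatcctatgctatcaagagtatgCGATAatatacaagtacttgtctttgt
Hr4 summit 10 (X:2005999-2006028, plus strand): attcctcagTGGCGCCAcctgtatttagag
Eip75B summit 1 (3L:18029721-18029821, plus strand): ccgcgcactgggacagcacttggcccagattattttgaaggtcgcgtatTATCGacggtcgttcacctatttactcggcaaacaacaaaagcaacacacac
Eip75B summit 2 (3L:18019788-18019888, plus strand): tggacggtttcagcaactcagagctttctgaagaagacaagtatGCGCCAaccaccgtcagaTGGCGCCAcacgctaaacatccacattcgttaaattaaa
br summit 2 (X:1618805-1618905, plus strand): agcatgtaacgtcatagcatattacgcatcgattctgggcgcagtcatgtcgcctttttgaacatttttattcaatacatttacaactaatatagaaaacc
Eip75B RC upstream (3L:17999822-17999881, minus strand): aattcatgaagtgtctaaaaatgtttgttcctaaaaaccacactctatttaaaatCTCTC

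Hr4 summits 4 and 6, the highest of the 41, held no match to any of the motifs searched, and Hr4 summit 7 held 1 CGATA. Eip75B summit 2 and Hr4 summit 10 each held TGGCGCCA, in which TGGCGC and its reverse complement overlap, and Eip75B summit 2 held a further GCGCCA shortly before it. The RC upstream stretch ends in CTCTC, directly before the transcription start. Summits held by 1 replicate or by neither are shown for comparison at usp, Eip74EF and Hr39, together with the 30 bp at the Eip75B isoform RA, which both replicates held.
usp summit 1 (X:2042436-2042536, plus strand): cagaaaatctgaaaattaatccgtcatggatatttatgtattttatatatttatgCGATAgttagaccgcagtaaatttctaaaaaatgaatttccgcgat
Eip74EF summit 6 (3L:17566988-17567088, plus strand): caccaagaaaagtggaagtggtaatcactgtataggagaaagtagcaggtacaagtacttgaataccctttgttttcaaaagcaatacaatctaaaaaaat
Hr39 summit 1 (2L:21250725-21250825, plus strand): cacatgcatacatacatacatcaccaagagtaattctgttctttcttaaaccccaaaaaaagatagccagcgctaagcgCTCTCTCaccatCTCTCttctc
Eip75B summit 8 (3L:17971288-17971317, plus strand): gcttcgggtcgCTCTCTCgCTCTCTCggcc

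Over all 41 windows, GAGAG was found in 7 (17.1%), against 12.6% of the windows at all 7220 summits. The receptor half-site AGGTCA was found in 0 of 41 windows, against 138 of 7220 (1.91%), and its inverted repeat with 1 base between the half-sites in 0 of 41 and 0 of 7220. The Huckebein core CACGCCC was found in 0 of 41 windows, against 0.762% of all, and the Zelda motif CAGGTAG in 0 of 41, against 0.582%. TGGCGC, searched after the sequences were seen, was in 4 windows (9.76%), against 3.85% of all, and CGATA, also searched afterwards, in 4 (9.76%), against 12.6%. Both strands were read for each motif. Median GC content was 39.6% in the member windows and 34.7% in all. A missing match says only that these letters are not within 50 bp of the summit.

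All 8 genes had a summit in the combined list, against 44.3% of all protein-coding genes and 71% of the 1013 protein-coding genes of at least 20 kb. In replicate 1 all 8 had one, against 36.7% of all and 65.4% of the long genes. Replicate 2 listed a summit at 5 of the 8 (EcR, br, Eip74EF, Eip75B and Hr4), against 32.9% of all and 59% of the long genes, and at none of usp, Eip78C and Hr39. Long genes hold more sequence that a summit can fall in, and 7 of the 8 genes are at least 20 kb long, usp being the exception. The 7 long members held 5.57 summits on average, against 2.86 over all 1013 long genes, whose median was 2. These long members run from 22.4 kb (Hr39) to 113.7 kb (Eip75B). The 1013 genes were not matched to them in length, so the part of length in this difference was not tested. Over the 517 kb of member windows there were 7.93 summits per 100 kb, against 5.39 per 100 kb of the 6 arms.

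The 8 genes differed widely among themselves. Hr4 had 10 summits, EcR 9, Eip75B 8 and Eip74EF 6, while usp, br, Eip78C and Hr39 had 2 each. There were 46 protein-coding genes with at least as many summits as Hr4, itself included, and 58 had at least as many as EcR, whereas 2813 had at least 2. Per 10 kb of window the order was usp (2.35), Hr4 (1.41), EcR (1.04), Eip74EF (0.914), Hr39 (0.729), Eip75B (0.674), Eip78C (0.445) and br (0.211), against 0.539 for the genome. With 2 summits in 94.7 kb, br lay below the genome's density, and usp came first with 2 summits in a window of 8.5 kb. These counts have no sampling error of their own beyond the replicate lists, which gave 10 and 8 summits at Hr4, 7 and 3 at EcR, 6 and 6 at Eip75B, and 7 and 3 at Eip74EF in replicates 1 and 2.

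**Figure D1:**
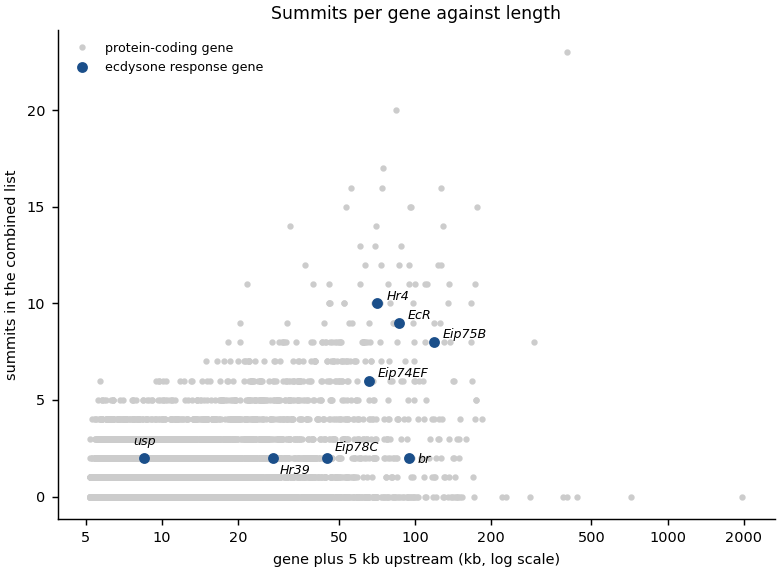
Number of combined-list summits per gene against the length of the gene plus 5 kb upstream (kb, log scale), with the 8 ecdysone response genes in blue and each other protein-coding gene as a grey point. Hr4, EcR, Eip75B and Eip74EF had 10, 9, 8 and 6 summits, and br, with 2 summits, lies near the bottom. The rank of these genes among genes of like length was not tested.

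Of the 41 summits, 32 were intronic, 4 in a 5′ untranslated region, 1 in a 3′ untranslated region, 4 upstream and 0 in a coding exon. The same count was not made over all 7220 summits or over the sequence of the windows. The intronic count is thus not shown to be particular to these genes. Within 500 bp of any protein-coding start lay 9 of 41 (22%, 95% exact binomial interval 10.6 to 37.6), against 43.6% of all 7220 summits (42.5 to 44.8). Over 5000 bp from every protein-coding start lay 19 of 41 (46.3%, interval 30.7 to 62.6), against 21.4% of all (20.4 to 22.3). The intervals cover counting error only, and summits of 1 gene share that gene's layout, so these are descriptions. A summit within 500 bp of an own start was found at 5 of the 8 genes (EcR, usp, Eip74EF, Eip75B and Eip78C), against 24.3% of all protein-coding genes and 41.9% of the long ones, and at 9 of the 31 distinct starts of the 8 genes. None of the starts of br, Hr39 or Hr4 had one. The 4 upstream summits lay 175 (usp), 236 (Eip74EF), 1776 (Hr4) and 2532 bp (EcR) from the gene's start. The nearest ones beyond the 5 kb limit lay 6609 bp upstream of Eip74EF (signal value 74.3), 7979 bp upstream of usp (690.2) and 13746 bp upstream of Hr4 (79.9), nearest to starts of anchor, moody and CG11596.

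**Figure D2:**
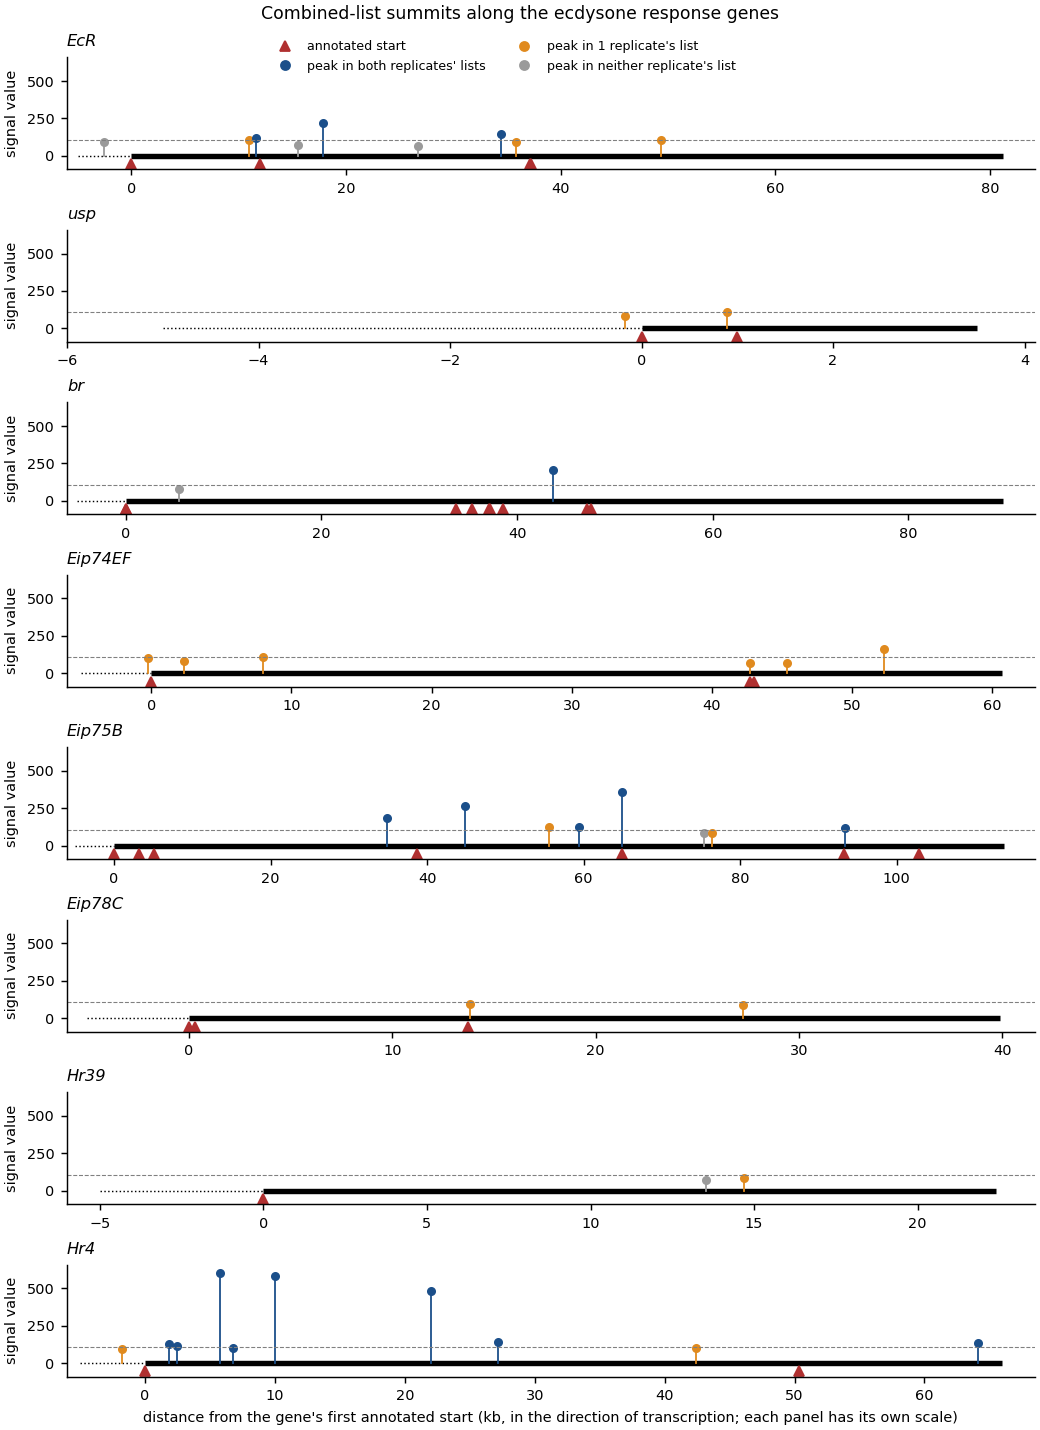
Signal value of each combined-list summit (vertical axis) by its distance from the first annotated start of the gene in kb (horizontal axis, a scale for each panel), with the gene as a black bar, the 5 kb upstream dotted and annotated starts as red triangles. Colours give the replicates whose own list holds the peak, and the dashed line is the median of the list, 106.6. The 3 tall summits of Hr4 lie inside the gene and away from both starts, whereas the tallest summit of Eip75B stands on a start.

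The signal values of the members had nearly the same median as the whole list. Their median was 106.5, with quartiles of 88 and 141, against a median of 106.6 and quartiles of 78.8 and 173 over all 7220 summits. Their range was 64.3 to 601.2, against 2.01 to 2889. The top 10% of the list, which ends at rank 722, held 4 of the 41: 3 at Hr4 and 1 at Eip75B. That is close to the 10% that the cut-off sets for the whole list.

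**Figure D3:**
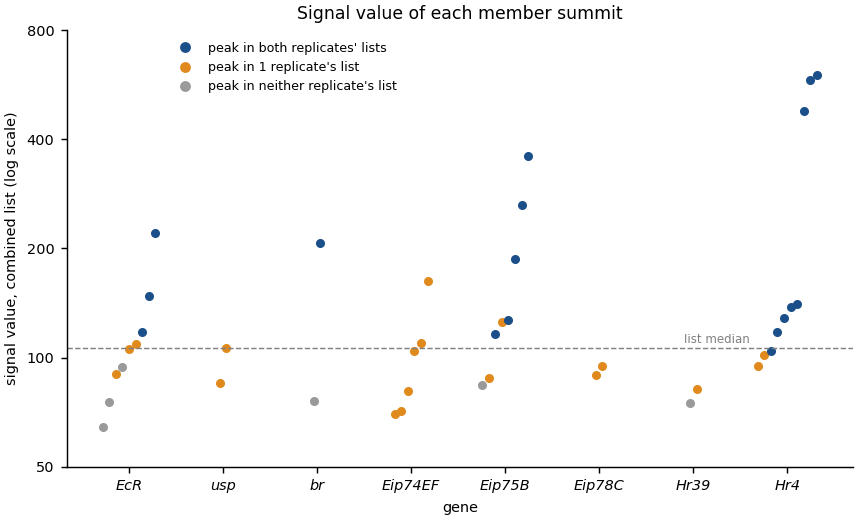
Signal value in the combined list (log scale) of each summit, by gene, coloured by the replicates whose own list holds the peak, with the list median dashed. Hr4, Eip75B, EcR, br and Eip74EF each have a summit of at least 162, and those of usp, Eip78C and Hr39 are all at or below 106.5.

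EcR (FBgn0000546), the hormone-binding subunit of the receptor, spans 81.2 kb on the minus strand of chromosome arm 2R, from 6087873 to 6169087, with 6 transcripts from 4 starts. Its 9 summits had signal values between 64.3 and 221, with a median of 106. The strongest lay in the intron 5863 bp downstream of the start shared by isoforms RD and RE. Its combined signal value was 221 (rank 1191), with 118.2 in replicate 1 and 103 in replicate 2, and both replicates placed it within 14 bp of the combined summit.

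Both replicates also held the EcR summit 304 bp upstream of the RD and RE start, the only EcR summit within 500 bp of a start. Its combined signal value was 118, with 63.8 in replicate 1 and 49.6 in replicate 2. One more shared summit, 2734 bp upstream of the start of RB and RC, had 148, 82.4 and 66.4, and the start of CG14589, at 2647 bp, was slightly nearer to it. The summits 969 bp upstream of RD and RE (109), 1310 bp upstream of RB and RC (90.3) and 12109 bp downstream of RG (106) were in the replicate 1 list alone, with 69.1, 86.5 and 61.1 there. Replicate 2 had candidates of 45.4, 25.6 and 37.7 under them, none of which passed the threshold.

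The remaining 3 EcR summits were held by neither replicate, and all 3 lay within 100 bp of a transfer RNA gene. The EcR window holds 16 tRNA genes, and no other member window holds any. The summit 2532 bp upstream of RA (94.3) was 51 bp from tRNA:Lys-CTT-1-5, that 3573 bp downstream of RD and RE (75.4) lay within tRNA:Asn-GTT-1-3 and held one of the TGGCGC matches, and that 10445 bp upstream of RB and RC (64.3) was 77 bp from the start of tRNA:Lys-CTT-1-1, just past the end of that gene. Their replicate candidates had 60.9, 30.2 and 35.8 in replicate 1 and 41.2, 41.3 and 22.2 in replicate 2. The share of summits within 100 bp of a tRNA gene was 7.32% (3 of 41) at the members, against 0.36% (26 of 7220) in the list. tRNA genes occur as near-identical copies, so the placing of reads among them is uncertain, and its part in these summits was not tested. Without them EcR keeps 6 summits.

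The partner of EcR, usp (FBgn0003964), lies on the minus strand of X from 2038798 to 2042311 and is the short gene of the set, at 3.5 kb. It has 2 starts, and each had a summit just upstream. The summit 108 bp upstream of RA, inside the intron of RB, had a combined signal value of 106.5 (rank 3613) and 82.3 in replicate 1, with a candidate of 31.1 in replicate 2. That 175 bp upstream of RB had a combined value of 85.2 and 46.4 in replicate 1, with a candidate of 36.5 in replicate 2, the best of the usp window there, whose −log10 IDR was 1.51. Isoforms of Actn, the alpha-actinin gene, share the start of RB, and this summit also lies within CG4313, so it cannot be given to 1 gene. The summit upstream of RA lies within Actn as well. Neither usp peak was thus held by replicate 2.

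Among the early genes, br (FBgn0283451) encodes the Broad zinc-finger factors. It spans 89.7 kb on the plus strand of X, from 1575132 to 1664869, with 16 transcripts from 9 starts, and had the sparsest peaks. One summit, 5407 bp downstream of RO, had a signal value of 75.7 and was held by neither replicate, whose candidates had 40.1 in replicate 1 and 35.3 in replicate 2. The other, 3453 bp upstream of RS, had 207 (rank 1326), with 119 in replicate 1 and 99 in replicate 2, and its peak was 102 bp wide, whereas 35 of the 41 member peaks had the most common width of the list. Both replicates held it, and it lay 700 bp from a start of Mur2B, a gene across the same introns that was nearer than any br start.

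Eip74EF (FBgn0000567), an early gene of the ETS family of transcription factors, spans 60.7 kb on the minus strand of 3L, from 17558672 to 17619325, with 5 transcripts from 3 starts. None of its 6 summits was held by both replicates: 4 were in the replicate 1 list alone and 2 in the replicate 2 list alone. The strongest, 9282 bp downstream of RD, had a combined signal value of 162 and 87.1 in the replicate 2 list. The start of CycT, at 9250 bp, was slightly nearer to it, and the strongest summit nearest to a start of Eip74EF itself had 109.7. Replicate 1 had a candidate of 77.2 at the strongest summit, its own best in the window, with a −log10 IDR of 0.17, so a high signal value in a replicate did not by itself pass the threshold.

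The other summit of Eip74EF listed in replicate 2 alone, 7977 bp downstream of the start of RA, RC and RE, had a combined value of 110, 64.4 in replicate 2 and a candidate of 49.5 in replicate 1. At the starts, the summit 236 bp upstream of RA, RC and RE had 104, with 52.3 in replicate 1 and a candidate of 48.8 in replicate 2. That 29 bp downstream of RB, and 277 bp upstream of RD, had 69.7, with 45.7 in replicate 1 and a candidate of 24.3 in replicate 2. All 3 starts of Eip74EF thus had a summit within 500 bp, each from replicate 1 alone, with RB and RD sharing the same summit. Neither of these summits is in the conservative list. The replicate 2 candidates under them had a −log10 IDR of 0.304 (at RA, RC and RE) and 0.168 (at RB). Summits 2335 bp downstream of RA, RC and RE (81.1) and 2322 bp downstream of RD (71.2) had 45.1 and 43.8 in replicate 1, with candidates of 40.9 and 28.1 in replicate 2.

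The peaks of Eip74EF also differed between the lists. Replicate 1 listed a peak 2272 bp upstream of RA, RC and RE (66.5) that the combined list lacks, and replicate 2 listed one 12609 bp downstream of RD (41). The conservative list, drawn from the comparison of the replicates with each other, held 9 summits at Eip74EF, 10 at Eip75B and 8 at EcR, and 5 of those at Eip74EF were not in the combined list, with signal values of 8.21 to 91. Of these 5, the one with 91 overlaps the peak that replicate 1 listed (66.5). Those with 55.4 and 8.21 both overlap the peak that replicate 2 listed (41).

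The remaining early gene, Eip75B (FBgn0000568), encodes the haem-binding nuclear receptor E75. It is the longest of the set, spanning 113.7 kb on the minus strand of 3L from 17950953 to 18064696, with 7 transcripts that each have their own start. Of its 8 summits, 5 were held by both replicates, 1 by replicate 1 alone, 1 by replicate 2 alone and 1 by neither. The strongest stood 29 bp downstream of RC in its 5′ untranslated region. Its combined signal value was 359.8 (rank 508), with 217 in replicate 1 and 143.5 in replicate 2, and its upstream sequence is the RC line printed above.

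The intron of Eip75B isoform RG held a summit 6194 bp downstream of its start with 263.5 (rank 892), 140.4 in replicate 1 and 121 in replicate 2, and both replicates put the summit on the same base. This is Eip75B summit 2, with TGGCGCCA in its window. A further intronic summit 3739 bp upstream of RG had 187, with 99.2 and 91.9 in replicates 1 and 2. The summit 5487 bp upstream of RC had 127, with 66.6 and 64.4, and that 143 bp downstream of RA, in its 5′ untranslated region, had 116.5, with 73.7 and 53.5. Thus RC and RA were the only ones of the 7 Eip75B starts with a summit within 500 bp.

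Below these, the Eip75B summit 9335 bp upstream of RC had a combined value of 125 and 62.9 in replicate 2, with a candidate of 54.8 in replicate 1. That 11519 bp downstream of RC had a combined value of 88 and 40.7 in replicate 1, with a candidate of 45.7 in replicate 2. The one held by neither, 10495 bp downstream of RC, had 84.3, with candidates of 46.2 in replicate 1 and 41.6 in replicate 2. The first has a higher combined value than the summit at RA that both replicates held, so the combined value alone did not decide how many replicates listed a peak.

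Eip78C (FBgn0004865), a nuclear receptor gene of the early-late class, spans 39.9 kb on the plus strand of 3L from 21226609 to 21266503, with 4 transcripts from 3 starts. Its 2 summits were both in the replicate 1 list alone. The first, 70 bp downstream of RB in the 5′ untranslated region, had a combined value of 94.6 and 58.7 in replicate 1, with a candidate of 37.8 in replicate 2 whose −log10 IDR was 1.11. The second, 13506 bp downstream of RB in an intron and 4167 bp from CG43218, had 89.6, 54.6 and a candidate of 33.8. The other starts of Eip78C had no summit within 500 bp.

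Hr39 (FBgn0261239), a nuclear receptor related to Ftz-F1, spans 22.4 kb on the plus strand of 2L from 21237250 to 21259675 and has 4 transcripts from 1 start. Its best signal value was the lowest of the set. The summit 14703 bp downstream of the start had a combined signal value of 82 and 44.5 in replicate 1, with a candidate of 34.5 in replicate 2. That 13525 bp downstream had 74.9 and was held by neither, with candidates of 56.4 in replicate 1 and 29.9 in replicate 2. Both lie nearer to the start of l(2)k14505 than to that of Hr39, at 9215 and 10393 bp.

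Hr4 (FBgn0264562), an orphan nuclear receptor gene of the ecdysone cascade, spans 66 kb on the plus strand of X from 1941940 to 2007956, with 9 transcripts from 2 starts, one for the long isoforms RC, RD and RG to RK and one for RE and RF. It had the strongest peaks of the set and the largest share held by both replicates, 8 of its 10 summits. Summit 4, 5785 bp downstream of the long isoforms' start, had a combined value of 601.2 (rank 188), with 317 in replicate 1 and 288.5 in replicate 2. Summit 6, 9981 bp downstream, had 582 (rank 202), 339 and 238. Summit 7, 21995 bp downstream, had 479.8 (rank 298), 236.5 and 231. The order of summits 4 and 6 differs between the replicates, so the 2 are not ordered by these data. Both were above summit 7 in each replicate, but in replicate 2 summit 6 (238) was only slightly above it (231). All 3 are intronic, and no protein-coding start other than that of Hr4 was nearer.

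The other Hr4 summits were far lower. Those 1847, 2472 and 6797 bp downstream of the long isoforms' start had 129, 117 and 104 in the combined list, with 66.1, 51.7 and 50.8 in replicate 1 and 67.7, 67.5 and 51.5 in replicate 2. The summit 23212 bp upstream of RE and RF had 141, with 75.3 and 62.1 in replicates 1 and 2. The summit 13748 bp downstream of RE and RF lay in the 3′ untranslated region, 3316 bp from PIG-K, and had 138, with 69 and 72.6. The 2 that replicate 2 did not list were the one 7983 bp upstream of RE and RF (101.5, with 59.9 in replicate 1 and a candidate of 42.5 in replicate 2) and the one 1776 bp upstream of the long isoforms' start (94.7, with 69.9 and a candidate of 31.7). That last summit is 124 bp from the start of CG3857.

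Across the 41 peaks, 17 (41.5%, interval 26.3 to 57.9) were held by both replicates, against 47.9% (46.8 to 49.1) of all 7220. Of those 17, 13 were at Hr4 or Eip75B. Replicate 1 alone held 15 (36.6%, interval 22.1 to 53.1), against 20.2% of all, replicate 2 alone 3 (7.32%), against 9.68%, and neither 6 (14.6%), against 22.2%. All 17 peaks held by both had a combined signal value of at least 104, and all 6 held by neither one of at most 94.3. Where both held a peak, their summits differed from the combined summit by a median of 14 bp in replicate 1 and 4 bp in replicate 2, and by at most 40 bp. Each of the 41 peaks had a candidate in the ranked list of either replicate.

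**Figure D4:**
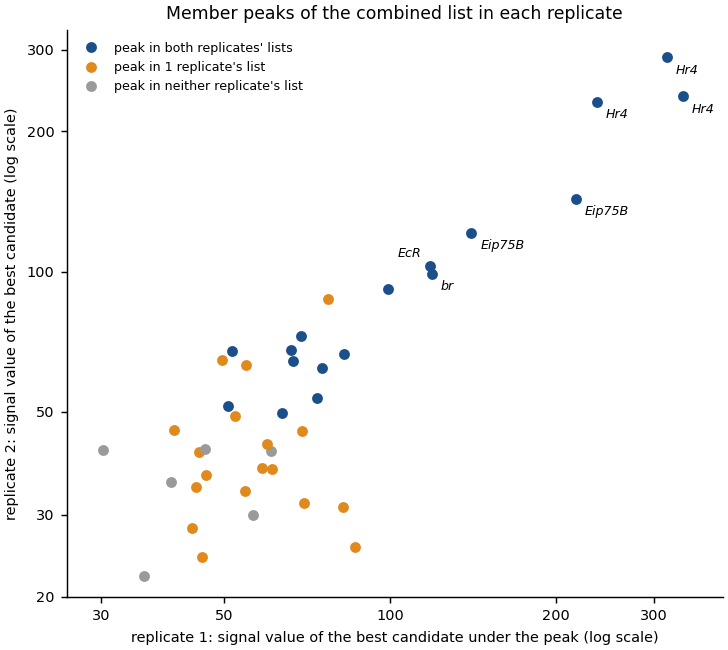
Signal value of the best candidate under each of the 41 peaks in replicate 1 (horizontal, log scale) and replicate 2 (vertical, log scale), coloured by the replicates whose thresholded list holds the peak. The 3 strong Hr4 peaks had the highest values in each replicate, with Hr4 summit 7 (236.5) close to the Eip75B peak at RC (216.8) in replicate 1. The peaks held by 1 replicate or by neither mostly lie lower. An exception is the strongest Eip74EF peak (77.2 in replicate 1, 87.09 in replicate 2), held by replicate 2 alone, which lies among those held by both.

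The best candidate of each gene was also read from each ranked list. In the combined ranked list and in the list made by comparing the replicates, the best candidate of each of the 8 genes was the same peak and was thresholded. In replicate 1 the best candidate was thresholded at 6 genes, all but Eip74EF and Hr39, whose best candidate (56.4) had a −log10 IDR of 1.3. In replicate 2 it was thresholded at 5, all but usp, Eip78C and Hr39. At Hr39 the best candidate in replicate 2 was not an intronic one but one 77 bp downstream of the single start, with a signal value of 40.5 and a −log10 IDR of 1.7.

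Beyond the 8, a list of 58 other genes of the pathway was read in the same way, and 30 of them (51.7%) had a combined-list summit, 29 one in replicate 1 and 24 one in replicate 2, against 44.3%, 36.7% and 32.9% of all protein-coding genes. Their median length was 4.3 kb. Of 16 genes of ecdysone synthesis, transport and breakdown, 3 had a summit: sad, a Halloween gene of the biosynthetic pathway (99.8, 4303 bp upstream and nearer to CG6959), Oatp74D, which encodes the ecdysone importer (141, 1492 bp upstream and 604 bp from the start of CG6333), and woc (108, 352 bp downstream of its start). Of the Halloween genes nvd, spo, spok, sro, phtm (phantom), dib, sad and shd, the other 7 had no combined-list summit, and shd had one in replicate 2 alone (57.6).

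Of 10 other nuclear receptor genes on the list, 8 had a summit (80%, against 44.3% of all protein-coding genes). Whether each of the 10 takes part in the response was not tested. Hr3, which encodes the receptor that follows E75 in the cascade, had a signal value of 851.5 (rank 90), with 465 in replicate 1 and 387 in replicate 2, above any of the 8 members. That summit lay 7881 bp downstream of an Hr3 start, and a start of CG46321 was equally near. After Hr3 came Hr96 (313), Hr78 (266), ftz-f1 (253), Hr51 (211), Hnf4 (182.5), ERR (134) and Hr38 (109.7), by the best signal value of each, and Hr83 and svp had none. The competence factor gene ftz-f1 had 16 summits, more than any member. Hr38 alone among these 8 had no summit in replicate 2. For Hr96 the start of EMC6, 87 bp from the summit, was the nearest.

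Of 8 genes grouped here as coregulators, 7 had a summit (87.5%, against 44.3% of all protein-coding genes), trr being the exception. The 7 include DopEcR (190), which is itself a receptor gene. The chromatin remodeller gene Mi-2 had the strongest summit of the group (532, with 303 in replicate 1 and 218 in replicate 2, in an interval nearer to the start of Su(Tpl)). Of 24 downstream targets 12 had a summit (50%, against 44.3% of all protein-coding genes), and the median length of the 24 was 2.35 kb. MsrA, first described as Eip71CD, had 877 (487 and 386 in replicates 1 and 2), but 2683 bp upstream of its start and 117 bp from that of CG7841. The ABC transporter gene E23 had 826 (422 and 387), 235 bp upstream. ImpL2, which encodes an insulin-binding secreted protein, had 757 (442 and 304), 1078 bp upstream, with a start of CG46460 equally near. Eip63E, a cyclin-dependent kinase gene, had 590.1 (350.1 and 231), and Ldh, the lactate dehydrogenase gene, 388 (194.5 and 191.5). The 12 targets without a summit were the glue genes Sgs3, Sgs4, Sgs5, Sgs7 and Sgs8, the fat body genes Fbp1 and Fbp2, the imaginal disc genes ImpE1, ImpE3 and ImpL1, the caspase gene Dronc, and Eip93F. For 9 of the 30 pathway genes with a summit, the best one was nearest to the start of another gene, with the ties at Hr3 and ImpL2 not counted.

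**Figure D5:**
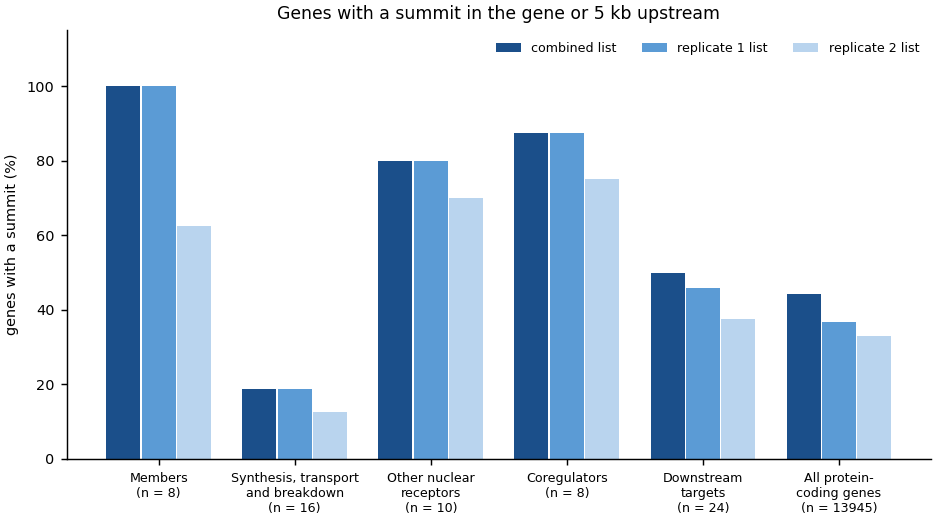
Percentage of genes with a summit in the gene or 5 kb upstream, in the combined, replicate 1 and replicate 2 lists, for the 8 members, the 4 groups of other pathway genes and all protein-coding genes, with n under each group. The synthesis group (18.8% in the combined list) lies below all protein-coding genes (44.3%). The nuclear receptor group (80%) and the coregulator group (87.5%, with DopEcR counted) lie above them. These groups also differ in median gene length, which was 3.35 kb for synthesis, 15.2 kb for the nuclear receptors, 10.6 kb for the coregulators and 2.35 kb for the targets, and its part in the shares was not tested.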

How the data were processed

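ChIP-seq peak lists of 2 biological replicates of 1 group were used, on dm6, per the labels. The aligner and peak caller, not given in the sources used here, could change which peaks are listed. The signal value, a score with no unit, is as the authors deposited it. The −log10 IDR is also a value the authors deposited. Summit positions, also from the deposited lists, were compared with the Ensembl release 115 annotation and with the RefSeq Release 6 assembly. A summit was given to every gene whose body or 5 kb upstream holds it, and its nearest own start was taken. A replicate held a peak where its thresholded peak overlapped by at least 1 bp. Shares carry exact binomial intervals at 95%. Assignment was tested on simulated summits. Python 3.11.15, pysam 0.24.0 and SciPy 1.17.1 were used.

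The genes, pathway list and motifs were chosen with earlier results of these data known. Of the other pathway genes, the text names the nuclear receptors, the Halloween genes and up to 8 with summits in the combined and both replicate lists, by signal value. Beyond that rule, further genes (woc, Oatp74D, trr, DopEcR and the downstream targets without a summit) were named after their values were seen. All 58 listed names were matched to a gene, 6 of them through a synonym. The alternatives were other windows, lists, thresholds, overlaps and distances. The motifs TGGCGC and CGATA, and leaving out summits within 100 bp of a tRNA gene, were added after the data were seen.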

Additional observations from a re-analysis of the deposited data

Results flagged for a closer look

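At Hr39 a candidate peak at 2L:21237152-21237535, 94 bp downstream of the single annotated start, had a signal value of 78.3 in the combined ranked list (rank 5881) and a −log10 IDR of 2.38. That passes the threshold, yet the peak is not among the thresholded peaks, so it is among the 42 candidates that reach the threshold and not among the 41 summits. The candidates under it had 41.9 in replicate 1 (−log10 IDR 1.72) and 40.5 in replicate 2 (1.7), neither of which passes. It was singled out as a signal in a list that the counts of summits do not use.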

How the results depend on the processing

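No paired analysis was possible because the study has 1 group. With both replicates 8 genes had a summit (44.3% of all protein-coding genes) and there were 41 summits. Leaving out replicate 1 gave 5 genes (32.9% of all) and 21 summits, and leaving out replicate 2 gave 8 genes (36.7%) and 37 summits. A −log10 IDR of at least 3 gave 25 summits at 7 genes (31.3% of all protein-coding genes). The stronger 50% of peaks gave 20 summits at 5 genes (30.3%). Without summits within 100 bp of a tRNA gene there were 38. The other windows, lists and assignments gave 7 to 8 genes and 31 to 45 summits, 17 to 18 peaks held by both replicates, 6 to 9 summits near an own start (within 200 to 1000 bp, against 8 within 500 bp), and 20 to 31 other pathway genes. The share of all protein-coding genes with a summit moved as well, to 17.8% with the gene body only (8 genes, 20 other pathway genes), 25.8% by nearest coding start (7 and 25) and 45.2% by peak overlap (8 and 30), against 44.3%. For single genes, 23 of 80 summit counts and 14 of 64 best signal values changed by more than the limits set (1.5 times for a count). Of the 14, those of br (75.7) and Eip74EF (109.7) by nearest coding start moved within the combined list. The others came from leaving out a replicate, which sets a value of 1 list beside that of another, so they show no change in signal. Hr39, usp and Eip78C had 0 summits in the stronger 50% of peaks and without replicate 1, and Hr39 also at the stricter IDR and by nearest coding start. Depth is unknown, so a missing peak is not shown to be an absent one.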
